A study of Homo sapiens with 6 samples.

Results

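The genes described here are 35 human genes of the metalloprotease families and their inhibitors: 17 matrix metalloproteinases (MMPs), 9 ADAM proteases, 4 ADAMTS proteases, 4 tissue inhibitors of metalloproteinases (TIMPs) and the membrane-anchored inhibitor RECK. They were taken as a fixed list of gene symbols, chosen with earlier results of these data known. Every probe set annotated to 1 of them and to no other gene was used. That gave 92 of the 41091 probe sets that name a single gene, and 35 of 19775 genes. The data are 6 one-colour arrays of total RNA from cultures at 70% confluence. The parental group is 3 samples of untransfected MDA-MB-231, an established, invasive line from a human breast tumour with no oestrogen receptor. The other group is 3 samples labelled 231wCFry, MDA-MB-231 cells carrying the wild-type Fry allele of the Copenhagen rat (Cop Fry), introduced in a plasmid built on pEGFP-N1 under puromycin selection. Both lines grew in Advanced DMEM with heat-inactivated serum and penicillin-streptomycin. 231wCFry is 1 stable clone, no empty-vector clone is described, and passage number differed among the RNA samples. No separate cultures are named within a group, so p-values measure only the spread between these samples, which may be technical. The number of arrays limits the precision of every value.

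MMPs are zinc-dependent proteases that cut collagens, proteoglycans and other matrix proteins. They are made as inactive proenzymes and switched on when the propeptide is removed, and several are switched on by plasmin or by other MMPs. ADAM proteases sit in the cell membrane and release the outer parts of growth factors, cytokine receptors and adhesion molecules, while ADAMTS proteases are secreted and cut large proteoglycans and collagen propeptides. TIMPs block the active site of these enzymes, and in invasive tumour cells the balance of proteases and inhibitors shapes how the cells pass through matrix.

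The markers of the labelled cell type differed between the groups. In the samples labelled 231wCFry, called Fry clone here, 5 of 6 epithelial markers tested fell and their summed signal was 1690 to 1855 against 7530 to 8244 in the parental samples. Of 9 melanocyte and neural crest markers tested 8 rose, and the summed signal of the list was 6323 to 7054 against 403 to 498. Over all genes tested 34.1% rose and 33.2% fell. In the parental group SOX10 (0.43 ± 0.32, SD, n = 3) and S100B (0.70 ± 0.87) were not above background. The mesenchymal markers VIM, AXL and CD44 were bright in both groups. VIM, the filament vimentin, read 3463 ± 200 and 3954 ± 521 and did not pass. AXL fell from 4331 ± 280 to 2663 ± 295 (limma adjusted p = 2.87e-04), and CD44 rose from 3052 ± 173 to 3703 ± 359 (adjusted p = 0.037). The 6 leukocyte markers on the array summed to 84.4 to 105 in the parental samples against 27.3 to 47.9; of 4 tested, CSF1R (59.2 to 5.27) and CD14 fell, LYZ rose and ITGAM did not pass. The 3 endothelial markers summed to 159 to 275 against 14.5 to 20.8. Of these PECAM1 fell from 210 ± 58.4 to 9.17 ± 3.91 (SD, n = 3; change -3.14, limma adjusted p = 4.29e-07), while CDH5 and VWF were too dim to test. Fibroblast markers summed to 357 to 427 against 832 to 935, of which 1 tested marker rose, COL1A2, and 3 fell. For GAPDH the 3' probe set read 1.36 to 1.39 times the 5' one in the parental group and 1.24 to 1.33 times in the other, a measure of RNA integrity. These shifts cover all 3 samples labelled Fry clone, so no comparison remains without them. An effect of Fry, of the choice of 1 clone and of a difference in cell lineage cannot be told apart in any value below, and the part of RNA integrity was not tested.

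Among the 30 member genes bright enough to test, 11 were higher and 11 lower in the samples labelled Fry clone (limma on log2(signal + 16), Benjamini-Hochberg adjusted p under 0.05 over all genes tested). The largest rises were of the stromelysin MMP3, the versican-cutting ADAMTS1 and the membrane protein ADAM12, and the largest falls of ADAM8, ADAMTS9 and the inhibitor TIMP4. Over all 13606 genes tested, 67.3% were called, 34.1% higher and 33.2% lower, so the share of members called, 22 of 30, was near that of all genes. The median change of the members was -0.03 on the log2 scale, against 0.01 over all genes, and their median size of change was 0.78 against 0.47. The groups did not overlap in 22 of the 30, against 73.0% of all genes. With a change of at least 1 on the log2 scale, 5 members rose and 5 fell, where 12.2% and 10.7% of all genes did. Of the 30, 7 (MMP3, MMP8, MMP12, MMP17, ADAM8, ADAM28 and TIMP4) passed the filter on low signals only through the group where they were high, so they had to differ. All 7 are part of the medians and of the count without overlap above. MMP3, ADAM8 and TIMP4 are also part of the counts with a change of at least 1, as is MMP19 by its brighter probe set. Among the other 23, 15 were called. The share of all genes without such genes was not computed. In bulk RNA, fewer cells of a type and less RNA per cell cannot be told apart. The remaining members, MMP7, MMP10, MMP13, ADAM23 and ADAMTS5, were not tested: the brightest probe set of each read at most 6.0 on any array, where the median over all probe sets was 10.4 to 12.1.

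**Figure D1:**
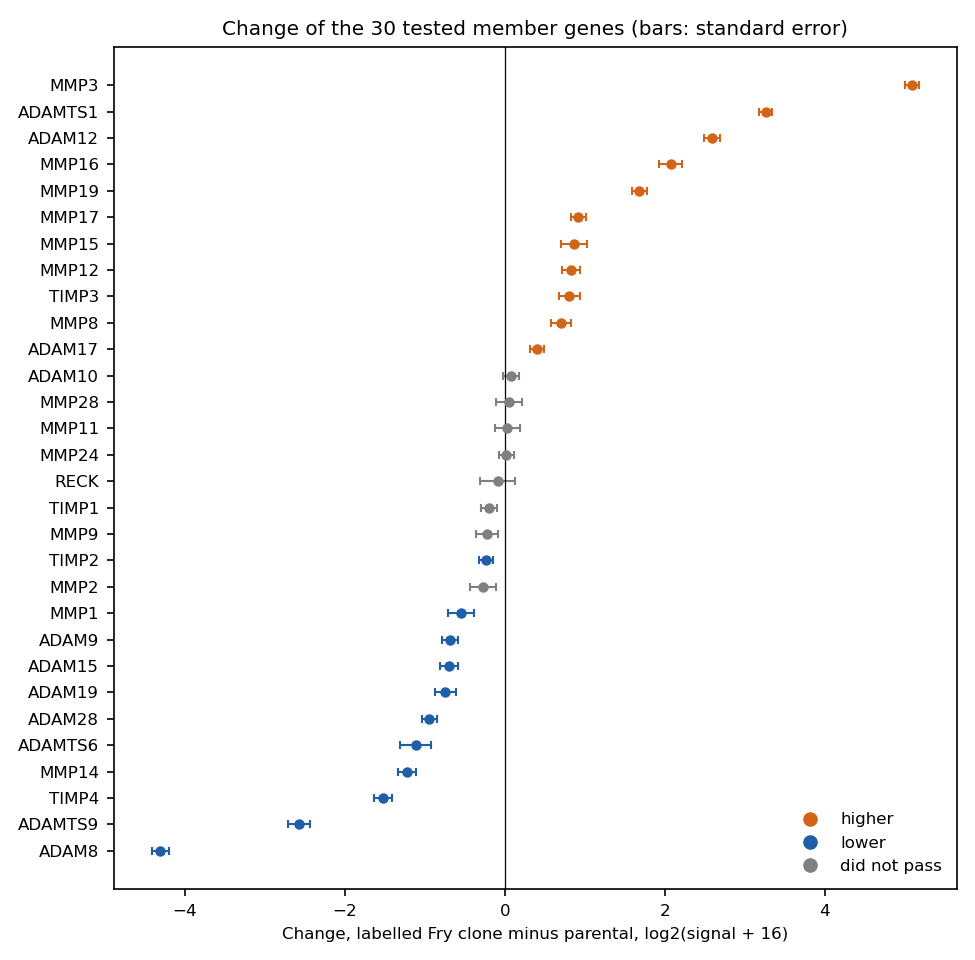
Change of each of the 30 tested member genes, on the horizontal axis as log2(signal + 16) in the samples labelled Fry clone minus parental, with limma's standard error as bars. Colours mark the 11 genes called higher, the 11 called lower and the 8 that did not pass; MMP3 stands at 5.09 and ADAM8 at -4.31.

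**Figure D2:**
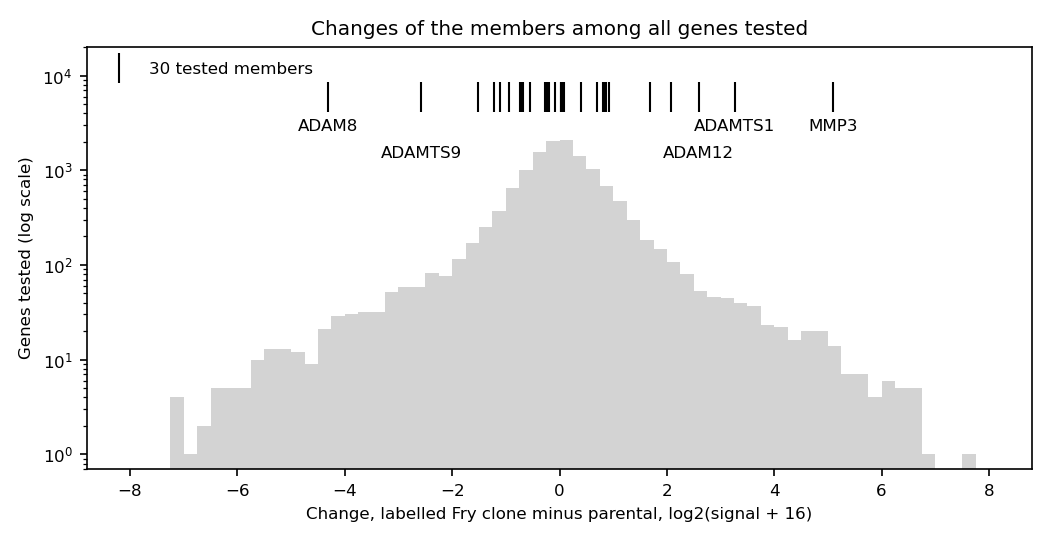
Histogram of the change of all 13606 genes tested, with the number of genes on a log scale, and a tick for each of the 30 tested members. Most members lie in the bulk of the distribution, while MMP3 ranks as the 46th largest rise and ADAM8 as the 94th largest fall.

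Among secreted MMPs, 4 of 9 tested genes rose and 1 fell, against 34.1% and 33.2% of all genes. MMP3, MMP8 and MMP12 passed the filter on low signals only through the group where they were high, so they had to differ. Without them 2 of 6 were called, MMP1 and MMP19. MMP19 was counted as a rise by its brighter probe set, although its other probe set fell. MMP3, stromelysin-1, which degrades proteoglycans and activates other MMP proenzymes, read 4.9, 4.0 and 5.8 on the parental arrays and 722.3, 683.6 and 678.4 on those labelled Fry clone. All arrays of the second group were therefore far above all parental ones. The change was 5.09 on the log2(signal + 16) scale (SE 0.09, adjusted p = 1.33e-10), the 46th largest rise of all genes. Its parental signal lay near the background level, the highest signal of 27 unspiked bacterial control probe sets on each array (2.5 to 4.9), so the linear ratio of 142 is unstable.

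MMP1, interstitial collagenase, which cuts fibrillar collagen, was bright in both groups. It read 1816.6, 1237.8 and 1378.9 on the parental arrays and 933.3, 1198.9 and 875.1 on the others. The groups did not overlap, but the nearest arrays were separated by less than the spread within either group. The change was -0.55 (SE 0.16, adjusted p = 0.014), and the call was lost without the third sample labelled Fry clone (-0.46, adjusted p = 0.055).

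MMP19, a secreted protease of basement membrane components, gave opposite readings from its pair of probe sets. The brighter one read 178.0, 187.0 and 189.8 on the parental arrays and 660.8, 656.0 and 571.5 on those labelled Fry clone, a rise of 1.68 (SE 0.09, adjusted p = 2.66e-07 over genes). The other read 40.3, 29.9 and 41.2 on the parental arrays and 0.1 on each of the others. In that group it was thus not above background and at least 10.4-fold lower (log2 change -1.72, adjusted p = 7.57e-07 over probe sets). Which transcripts of MMP19 each probe set reads was not tested, so the count of rises holds it by its brighter probe set only (mean over both probe sets -0.017, adjusted p = 0.85).

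The remaining secreted MMPs were dim. MMP8, the neutrophil collagenase, and MMP12, the macrophage elastase, rose by 0.70 and 0.83 but reached at most 19.8 on any array. The gelatinases MMP2 and MMP9, which cut denatured collagen and basement membrane collagen, read at most 20.5 and 13.8 and did not pass (-0.27 and -0.22, adjusted p = 0.16 and 0.18). Leaving out the second parental sample brought MMP2 past the threshold (-0.43, adjusted p = 0.023). MMP11, stromelysin-3, and MMP28, epilysin, did not pass either on their brightest probe sets (adjusted p = 0.87 and 0.80), while the other tested probe set of MMP11 fell (-0.62, adjusted p = 0.0031 over probe sets). With the mean over its probe sets MMP11 passed as a fall (-0.30, adjusted p = 0.033).

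MMP1, MMP3, MMP7, MMP8, MMP10, MMP12 and MMP13 lie side by side on chromosome 11 in RefSeq's gene order (GRCh38.p14), together with MMP20 and MMP27. Of these 9 neighbours only MMP1 and MMP3 exceeded a mean of 100 in a group. MMP20 and MMP27 were not tested, with means of at most 2 in either group. The genes just outside the cluster were bright and did not pass: TMEM123 read 1068 ± 20.5 and 959.6 ± 114 (SD, n = 3; adjusted p = 0.20) and DCUN1D5 1523 ± 89.9 and 1765 ± 172 (adjusted p = 0.099). Next to each other in the order, MMP1 fell and MMP3 rose.

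**Figure D3:**
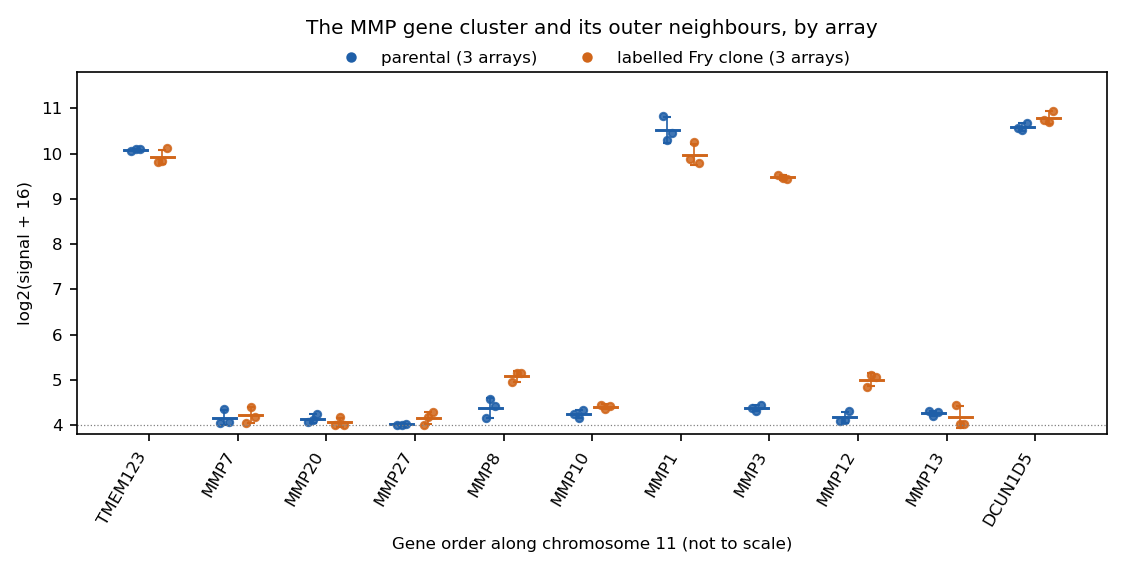
Signals on the log2(signal + 16) scale of the 9 MMP genes of the chromosome 11 cluster and of the gene on either side, in gene order and not to scale. Points are arrays, horizontal bars group means and vertical bars SD (n = 3); the dotted line is a signal of 0. MMP3 differs far more between the groups than MMP1, and the other cluster genes lie near the floor in both.

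Promoters of this cluster are known for an AP-1 element, the binding site of FOS and JUN dimers, close to the start of transcription. RefSeq's promoter table (GRCh38.p14, 250 bases before to 50 after each gene's start) held 19 of the 35 members. MMP1, MMP2, MMP3, MMP9, MMP12, MMP13, MMP16, MMP17, MMP19, MMP28, ADAM9, ADAM28, ADAMTS1, ADAMTS5, ADAMTS9 and TIMP2 were not among them. A set of 3 motifs was searched: AP-1 (TGANTCA, whose reverse complement has the same form), the TATA box (TATAAA, on the gene's strand) and the GC box bound by SP1 (GGGCGG, on both strands). These motifs share no bases with one another in the sequences printed. AP-1 occurred in 2 of the 19 members, MMP7 and MMP10, and in 7.71% of all 35116 promoters. The TATA box occurred in MMP7, MMP8 and MMP10, and in 7.33% of all promoters. These 3 cluster members are shown from 120 bases before to 20 bases after the gene's start to compare that layout, 5′ to 3′ on the minus strand, with AP-1 and TATA matches in capitals. MMP7 is at chr11:102530728-102530867, MMP10 at chr11:102780609-102780748 and MMP8 at chr11:102724935-102725074.
MMP7: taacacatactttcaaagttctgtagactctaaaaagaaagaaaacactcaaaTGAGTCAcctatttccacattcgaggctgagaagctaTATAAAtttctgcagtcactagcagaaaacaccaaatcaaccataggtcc
MMP10: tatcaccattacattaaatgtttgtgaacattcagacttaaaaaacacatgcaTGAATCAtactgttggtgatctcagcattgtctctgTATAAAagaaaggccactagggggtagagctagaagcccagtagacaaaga
MMP8: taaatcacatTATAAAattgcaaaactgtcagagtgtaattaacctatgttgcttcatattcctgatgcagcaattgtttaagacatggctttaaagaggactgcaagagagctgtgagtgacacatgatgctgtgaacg
The AP-1 match began 67 bases before the start in both MMP7 and MMP10, and their TATA boxes 30 and 31 bases before it. In MMP8 the TATA match began 110 bases before the start. MMP7 read at most 5.3 and MMP10 at most 6.0 on any array of either group, so neither matched promoter came with a signal bright enough to test. A match of letters is a description, not a site of binding.

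Among the 5 membrane-type MMPs, which are held at the cell surface, 3 rose, 1 fell and 1 did not pass. Over all genes 34.1% rose and 33.2% fell. MMP17 passed the filter on low signals only through the group where it was high, so it had to differ. Without it 3 of 4 were called. MMP14, the main activator of the MMP2 proenzyme, read 541.4, 444.9 and 564.1 on the parental arrays and 200.5, 208.0 and 227.0 on those labelled Fry clone. Every parental array was higher by more than the spread of either group, with a change of -1.22 (SE 0.11, adjusted p = 8.25e-06), and all 4 of its probe sets fell. MMP16, a relative of MMP14 that can also activate the MMP2 proenzyme, moved the other way. It read 69.6, 76.7 and 109.8 against 389.8, 438.3 and 390.4, a rise of 2.08 (SE 0.14, adjusted p = 1.16e-06), and all 5 of its probe sets rose (1.20 as their mean).

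MMP24, a membrane-type MMP first known from brain, read 327.6, 376.0 and 349.3 on the parental arrays and 353.5, 344.1 and 369.1 on the others. The groups overlapped, with a difference of 0.02 (SE 0.09, adjusted p = 0.86). The other probe set of MMP24 was not above background in either group and was not tested. MMP15 and MMP17, the second tethered by a lipid anchor, were dimmer and rose by 0.87 and 0.92, reaching at most 59.9 and 20.5. The promoter of MMP14, the one membrane-type MMP that fell, is shown whole (chr14:22836335-22836634, plus strand, GC box in capitals); it holds neither the AP-1 nor the TATA letters.
MMP14: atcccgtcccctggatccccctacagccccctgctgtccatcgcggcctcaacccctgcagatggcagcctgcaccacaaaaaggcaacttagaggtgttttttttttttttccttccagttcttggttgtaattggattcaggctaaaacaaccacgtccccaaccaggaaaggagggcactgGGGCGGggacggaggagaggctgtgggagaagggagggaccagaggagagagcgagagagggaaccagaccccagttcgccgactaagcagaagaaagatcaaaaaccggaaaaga

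Of 8 ADAM genes tested, 2 rose, 5 fell and 1 did not pass, where 34.1% of all genes rose and 33.2% fell. ADAM8 and ADAM28 passed the filter on low signals only through the parental group, so they had to differ. Without them 5 of 6 were called. ADAM8, a protease and adhesion protein first known from leukocytes, showed the largest fall of any member. It read 375.2, 387.6 and 381.9 on the parental arrays and 6.6, 4.1 and 1.9 on those labelled Fry clone. The parental arrays thus agreed closely, and the others lay near background. The change was -4.31 (SE 0.10, adjusted p = 8.14e-10), the 94th largest fall of all genes. Its other probe set was dim in both groups, at 9.5 ± 3.72 and 6.77 ± 2.97 (SD, n = 3), and did not pass. With the mean over both probe sets the change of ADAM8 was -2.23 (adjusted p = 2.62e-08). Among the 6 leukocyte markers, CSF1R fell by 1.82 and CD14 fell by 0.86, LYZ rose by 0.50, ITGAM did not pass, and PTPRC and CD163 were too dim to test. Their part in the fall of ADAM8 was not tested.

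ADAM12, or meltrin alpha, a membrane protease made in muscle and mesenchymal cells, was the ADAM that rose most. It read 28.2, 22.7 and 28.3 on the parental arrays and 247.3, 245.1 and 225.1 on the others. The groups were far apart, with a rise of 2.59 (SE 0.10, adjusted p = 1.42e-08). All 3 tested probe sets rose, but unequally. Without the probe set types _s_at, _x_at and _a_at the rise was 0.94 (adjusted p = 1.31e-05), and as the mean over probe sets 1.53.

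ADAM8 and ADAM12, the ADAM genes with the largest fall and rise, both lie on chromosome 10 and are shown with their promoters, on the minus strand, with GC boxes of either strand in capitals. ADAM8 is at chr10:133276819-133277118 and ADAM12 at chr10:126388428-126388727.
ADAM8: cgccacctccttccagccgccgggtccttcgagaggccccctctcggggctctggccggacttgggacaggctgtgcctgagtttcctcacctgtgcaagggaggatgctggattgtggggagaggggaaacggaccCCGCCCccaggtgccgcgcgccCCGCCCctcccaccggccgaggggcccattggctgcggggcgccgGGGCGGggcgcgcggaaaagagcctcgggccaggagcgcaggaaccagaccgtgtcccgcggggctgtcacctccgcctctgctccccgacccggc
ADAM12: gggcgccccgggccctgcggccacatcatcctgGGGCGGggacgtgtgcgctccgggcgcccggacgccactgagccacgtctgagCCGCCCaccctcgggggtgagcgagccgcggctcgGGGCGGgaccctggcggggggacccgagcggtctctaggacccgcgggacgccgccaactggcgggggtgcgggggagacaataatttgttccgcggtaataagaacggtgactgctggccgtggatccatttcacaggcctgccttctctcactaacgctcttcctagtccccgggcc
Each holds 3 GC boxes and neither an AP-1 nor a TATA match. GC boxes occurred in 14 of the 19 members with a promoter in the table (73.7%) and in 45.0% of all promoters. The part of the motif in these changes was not tested.

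The ADAM proteases that shed most cell-surface proteins were bright, and their differences were small. ADAM10, a main sheddase of Notch receptors and cadherins, read 2525.5, 2627.6 and 2770.3 on the parental arrays and 2766.9, 2581.9 and 3029.0 on the others. The groups overlapped, with a difference of 0.08 (SE 0.10, adjusted p = 0.50), although 1 of its 3 probe sets rose (0.52, adjusted p = 0.0034 over probe sets). ADAM17, which releases tumour necrosis factor and ligands of the EGF receptor, read 551.7, 585.7 and 605.1 against 791.4, 775.5 and 746.2. Its groups did not overlap, and the rise was 0.40 (SE 0.09, adjusted p = 0.0026). Of the 3 probe sets of ADAM17, 2 rose and 1 did not pass (0.23, adjusted p = 0.11 over probe sets).

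The other bright ADAM genes, 3 in number, fell. ADAM9, a broadly made sheddase, read 2045.7, 2013.2 and 2327.7 against 1222.6, 1337.0 and 1403.9. ADAM19, meltrin beta, which can cut neuregulin, read 1393.7, 1293.6 and 1837.2 against 895.1, 917.2 and 840.7. ADAM15, which carries an integrin-binding motif, read 167.9, 149.8 and 153.2 against 93.0, 104.6 and 75.9. Their groups did not overlap, and the changes were -0.68, -0.74 and -0.70, with adjusted p = 2.23e-04, 7.51e-04 and 4.77e-04. The other tested probe set of ADAM15 did not pass (-0.11, adjusted p = 0.37 over probe sets), and the mean over both was -0.40. Of the 3 probe sets of ADAM9, 2 fell and 1 did not pass (-0.29, adjusted p = 0.055 over probe sets). The other probe set of ADAM19 was too dim to test. The dimmer ADAM28, a protease found in lymphocytes and epithelia, fell by 0.94 from 22.3 ± 1.89 to 3.93 ± 1.35 (SD, n = 3).

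All 3 tested ADAMTS genes changed, where 67.3% of all genes were called. ADAMTS1, which cuts versican and aggrecan, read 21.3, 23.2 and 22.0 on the parental arrays and 355.6, 357.2 and 336.4 on those labelled Fry clone. The spread within each group was small beside the gap, and the rise was 3.26 (SE 0.08, adjusted p = 1.29e-09), the 226th largest of all genes. Its other probe set rose as well (1.33).

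ADAMTS9, another protease of versican and aggrecan, went the other way. It read 130.8, 140.3 and 112.2 against 9.1, 11.6 and 4.2. All arrays labelled Fry clone thus lay below the parental range, with a change of -2.57 (SE 0.13, adjusted p = 1.45e-07). Only 1 of the 4 probe sets of ADAMTS9 was bright enough to test. ADAMTS6, with 1 of 3 probe sets bright enough to test, read 281.1, 203.1 and 363.3 against 121.3, 98.2 and 140.3. Although the parental arrays were widely spread, the groups did not overlap (-1.11, SE 0.19, adjusted p = 6.51e-04).

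**Figure D4:**
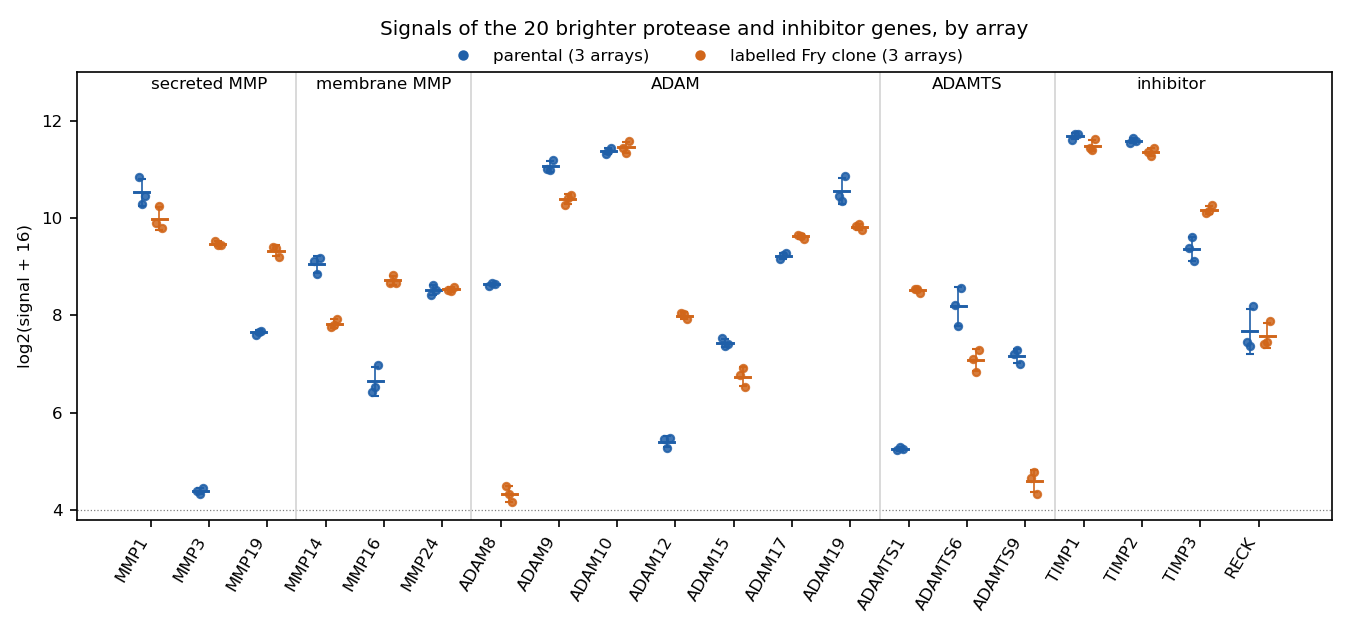
Signals on the log2(signal + 16) scale of the 20 tested member genes with a mean of at least 100 in a group, ordered by role. Points are arrays, horizontal bars group means and vertical bars SD (n = 3); the dotted line is a signal of 0. MMP3, ADAM8, ADAM12, ADAMTS1 and ADAMTS9 separate most, and MMP24, ADAM10, TIMP1 and RECK overlap.

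Among the inhibitors, 1 of 5 rose, 2 fell and 2 did not pass, where 34.1% of all genes rose and 33.2% fell. TIMP4 passed the filter on low signals only through the parental group, so it had to differ. Without it 2 of 4 were called. TIMP1, a secreted inhibitor of most MMPs, read 3113.4, 3391.1 and 3346.8 on the parental arrays and 2775.1, 2688.8 and 3128.6 on the others. The groups overlapped (-0.20, SE 0.10, adjusted p = 0.095), and it passed with an intensity trend in the variance prior (adjusted p = 0.027), with a pseudocount of 64 (0.032) and without the third sample labelled Fry clone (0.046). TIMP2, which blocks MMPs and also docks the MMP2 proenzyme onto MMP14, read 2965.2, 3175.3 and 3051.6 against 2618.3, 2444.3 and 2763.7. The groups did not overlap, but the fall of 0.23 passed only narrowly (adjusted p = 0.045). The call was lost on leaving out any sample but the third labelled Fry clone (adjusted p = 0.062 to 0.14). Of the 3 probe sets of TIMP2 only 1 fell. Another rose (0.53, adjusted p = 0.0075 over probe sets) and 1 did not pass (-0.19, adjusted p = 0.093).

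TIMP3, the matrix-bound inhibitor that also blocks ADAM17 and ADAMTS proteases, was the inhibitor that rose. It read 649.3, 761.7 and 535.2 on the parental arrays and 1081.3, 1119.2 and 1213.9 on those labelled Fry clone. The groups were separated by more than the spread within either (0.81, SE 0.13, adjusted p = 3.86e-04), and 3 of its 4 probe sets rose while 1 did not pass (0.16, adjusted p = 0.41 over probe sets). TIMP4, a TIMP best known from heart, read 35.8, 40.1 and 29.6 against 3.7, 1.3 and 0.3, so it lay near background in the second group (-1.53, SE 0.11, adjusted p = 1.97e-06).

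RECK, a surface glycoprotein that restrains MMP2, MMP9 and MMP14, read 158.7, 148.7 and 278.2 against 154.3, 158.6 and 220.8. The third array was highest in each group and the groups overlapped (-0.09, SE 0.22, adjusted p = 0.74). Of its 4 tested probe sets 1 fell (-0.34, adjusted p = 0.026 over probe sets) and 3 did not pass.

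Of the 15 members with several tested probe sets, 5 had all of them called in 1 direction: MMP14, MMP16, ADAM12, ADAM28 and ADAMTS1. In 8 others the called probe sets went 1 way and at least 1 did not pass. MMP19 and TIMP2 were called in both directions, as were 6.73% of all genes with several tested probe sets. Over probe sets, 59 of the 92 were tested, with 23 higher and 19 lower, against 62.4% of all probe sets called in either direction.

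**Figure D5:**
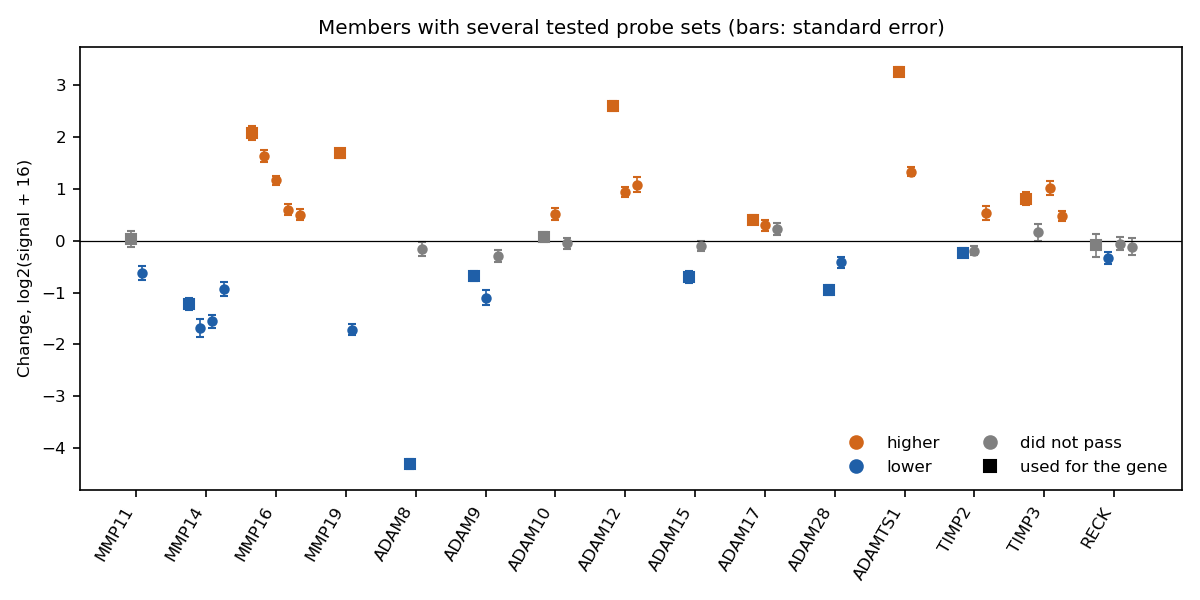
Change of every tested probe set of the 15 members with several, as log2(signal + 16) in the samples labelled Fry clone minus parental, with standard errors; squares mark the probe set used for the gene. All tested probe sets of MMP14 fall and all of MMP16 rise, while those of MMP19 stand at 1.68 and -1.72.

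The regulators and relatives of these proteases were described from 8 lists. Of 60 genes tested, 20 were higher and 24 lower, near the share of all genes, 34.1% and 33.2%. Among proenzyme activators 3 of 9 rose and 5 fell: PLAU, the urokinase that makes plasmin, fell by 6.86 and its receptor PLAUR by 1.20, while the kallikrein KLK6 rose from a level not above background to 53.1 ± 7 (SD, n = 3), at least 15.4-fold higher. Of 10 other inhibitors and inducers 6 rose and 3 fell. SPOCK1, a testican proteoglycan, rose from 12.1 ± 1.05 to 1051 ± 34.1 and PCOLCE, an enhancer of procollagen cleavage, from 24.5 ± 3.15 to 691 ± 61.4. TFPI2, a serine protease inhibitor of the matrix, fell from 595 ± 118 to a level not above background, at least 167-fold lower.

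Of 9 partners of ADAM10 and ADAM17, 2 rose and 4 fell, where 34.1% of all genes rose and 33.2% fell. The tetraspanin TSPAN5, which carries ADAM10, fell by 1.19 and the iRhom RHBDF2, which brings ADAM17 to the surface, by 1.07, while TSPAN33, another carrier of ADAM10, rose by 0.87. Of 15 AP-1, ETS and RUNX factors, which bind MMP promoters, 5 rose and 4 fell. ATF3 rose by 2.14 and JUNB by 0.84, while FOSL2 fell by 0.88. FOS and JUN, chosen after their values were seen, did not pass (adjusted p = 0.49 and 0.21).

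The remaining relatives were mostly dim, apart from the ADAMTS group. Of 11 other ADAMTS and ADAMTS-like genes tested, 3 rose and 8 fell, where 34.1% of all genes rose and 33.2% fell. ADAMTS12 fell from 461 ± 12.8 (SD, n = 3) to a level not above background, at least 131-fold lower, ADAMTSL1 from 222 ± 28.6 to 5.37 ± 1.11 and ADAMTS15 from 483 ± 69.7 to 36.1 ± 4.29. Of 4 other ADAM genes 1 rose, ADAM21 (0.49), while ADAM22 and ADAM11 read 0.25 and 0.21 and did not pass. Of the astacin proteases BMP1 and TLL2 did not pass (-0.03 each), and none of the 5 other MMPs on the array was bright enough to test. The adjusted p of the genes called in these lists and named here was at most 0.0043.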

How the data were processed

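Total RNA of 6 samples was hybridised to 1-colour Affymetrix arrays, 1 array per sample. The deposited values are linear MAS5 signal intensities, which the authors computed (per the submitters' processing notes). For the MAS5 version and scaling target, the processing notes give nothing. With the highest and lowest 2% of signals left out, the mean signal was 150.015 to 150.017 on every array. MAS5 subtracts mismatch-probe signal, so dim signals run down to 0 and their ratios are unstable. Gene names came from GEO's platform annotation, and all 35 member symbols matched RefSeq (GRCh38.p14) by gene identifier.

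Signals were transformed to log2(signal + 16), a scale on which changes of dim genes come out too small. Probe sets were tested where their mean log2 value over the 6 arrays reached the 40th percentile, a signal of 5.62. The 62 control probe sets were left out. All 32768 remaining probe sets entered 1 limma 3.58.1 fit (lmFit, eBayes; R 4.3.3). Benjamini-Hochberg adjustment ran over probe sets or over the 13606 genes, a gene being read by the brightest of its probe sets in mean log2 value. The threshold was 0.05. The fit was tested on simulated data. Sequences are RefSeq's. Figures were drawn with matplotlib 3.10.9.

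Members, lists and markers were chosen with earlier results of these data known. Signals of all 6 arrays are given for tested members with a mean of at least 100 in a group. Dimmer members are given by range, with values where a called change was at least 1 on the log2 scale. The 3 genes with the smallest p are named from each of 8 lists of related genes. Alternatives changed the pseudocount, filter, scaling, probe set choice, variance prior, replicate block and arrays included.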

Additional observations from a re-analysis of the deposited data

How the results depend on the processing

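Of 460 recomputed changes of single members under 16 alternatives, 435 kept their direction and side of the threshold, 10 lost it, 5 gained it and 10 reversed. Of the 30 genes 14 could be recomputed under all 16, and 16 under 14 or 15. Over the alternatives run for each, 21 genes kept both, 10 of them under all 16. The count of member genes called was 22 of 30, and 15 to 23 under the alternatives. The count of 15 was out of the 19 with a probe set left once the types _s_at, _x_at and _a_at were dropped. That setting left 20 of 25 member probe sets called, against 42 of 59, and moved the median change of the members from -0.03 to -0.27. The 11 genes it removed were not recomputed. A filter at the 60th percentile left 28 of 38 regulator genes called, against 44 of 60. Averaging the probe sets of a gene turned MMP11 to -0.30, now called (adjusted p = 0.033), and MMP19 to -0.017 and TIMP2 to 0.037, both no longer called (0.85 and 0.68). Leaving out 1 array gave ranges that crossed 0 for MMP11 (-0.13 to 0.14), MMP24 (-0.027 to 0.068), MMP28 (-0.15 to 0.16) and RECK (-0.24 to 0.18), none of which was called. It gave 21 to 22 member genes, 40 to 42 member probe sets and 40 to 44 regulator genes called, and a median of -0.15 to 0.01. RECK passed without the probe set types above (-0.34, adjusted p = 0.025). TIMP2 lost its call with a pseudocount of 1 (adjusted p = 0.064), median centring (0.069) and without those types (0.099). The cause of these changes was not tested. A replicate block on the sample numbers left 21 member genes called, since TIMP2 did not pass (adjusted p = 0.065), and changed no other member call; it left 42 member probe sets and 44 regulator genes called. Deviations of same-numbered samples correlated at 0.070, 0.075 and 0.19, and those of differently numbered samples at -0.13 to 0.079. The main fit did not take the numbers as pairs, and these values do not settle whether they are. Scaling moved the median of all probe sets by less than 0.1 on the log2 scale. Signals near the background level, as of MMP3 in the parental and ADAM8 in the other samples, have no settled ratio: with a pseudocount of 1 their changes were 6.89 and -6.31.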
